A study of Homo sapiens with 25 samples.

Results

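The genes described here are 37 genes of the G1/S transition and of DNA replication, out of 59427 gene names in the deposited expression table. They were chosen by name, from what their products do, and all 37 were found. The MCM genes, which encode the core of the replicative helicase, were left out of the set. During G1, cyclin D and cyclin E kinases phosphorylate the retinoblastoma protein and so release E2F transcription factors, which activate genes needed for DNA synthesis. Origins of replication are licensed in G1 by ORC, CDC6 and CDT1. They are fired in S phase when CDC45 and the GINS complex activate the helicase, after which DNA polymerase alpha-primase lays down primers for polymerases epsilon and delta.

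RNA was sequenced from A549 and NCI-H460, established human non-small cell lung cancer lines, 24 h after transfection of 25 nM of an antisense oligonucleotide (ASO), a short DNA-like strand that directs the cutting of a matching RNA. The groups were ASO3 and ASO5 against the long noncoding RNA called candidate 42, ASO1 and ASO3 against the one called candidate 240, and a neutral control ASO (Control A). Each group had 3 libraries in A549 (replicates 3, 4 and 5) and 2 in NCI-H460 (replicates 1 and 2). The labels name neither candidate's gene, so the level of the targeted RNA is not given here and the strength of each knockdown was not checked. Nor do they say whether libraries came from separate cultures, so p-values measure the spread between these libraries, which may be technical.

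Values are TPM (a level of transcripts scaled by their length and by the library's total) after a further rescaling that is not stated. Library columns summed to between 924350 and 1179220, and listed between 23879 and 27731 genes above 0. The keratin genes KRT8, KRT18 and KRT19 were high in both lines, EPCAM and CDH1 were under 1 TPM in NCI-H460, and 4 leukocyte and 3 endothelial markers were each under 1 TPM in both. The fibroblast markers summed to between 2.95 and 7.84 TPM in NCI-H460 libraries, and to under 1 TPM in A549. In A549, candidate 240 ASO3 replicate 3 stood apart on the first principal component (71.9), and in NCI-H460 so did candidate 42 ASO3 replicates 1 and 2 (-72.2 and -38.7). Every A549 group had replicate 3 above its replicates 4 and 5, the controls at 20.9 against -22.4 and -24.6. Differences are log2 fold changes of TPM + 0.5, ASO over control, tested with limma over all genes averaging at least 1 TPM. A member is said to have risen or fallen where its Benjamini-Hochberg adjusted p was under 0.05. All 37 members were tested in every comparison. In bulk RNA, fewer cells in S phase and less RNA per cell cannot be told apart. All ASOs of a line share its control libraries.

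The promoters below show what several members share in sequence. They come from RefSeq (GRCh38.p14), are the 150 bases ending at the annotated start, and read 5′ to 3′ on the gene's strand. Capitals mark matches, on either strand, to an E2F motif (TTTCCCGC, TTTCGCGC, TTTGCCGC or TTTGGCGC) or to CCAAT, the motif bound by NF-Y. They lie at chrX:24693768-24693917 (plus strand) for POLA1, chr20:33686386-33686535 (minus) for E2F1, chr19:4909351-4909500 (plus) for UHRF1, chr13:33817999-33818148 (plus) for RFC3, chr22:19479770-19479919 (plus) for CDC45, and chr20:5126623-5126772 (minus) for PCNA. The first 5 genes fell in at least 1 comparison, and PCNA did not fall in any.
POLA1: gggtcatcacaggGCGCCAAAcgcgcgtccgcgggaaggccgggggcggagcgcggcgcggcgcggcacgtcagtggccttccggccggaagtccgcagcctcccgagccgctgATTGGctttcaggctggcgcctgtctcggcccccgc
E2F1: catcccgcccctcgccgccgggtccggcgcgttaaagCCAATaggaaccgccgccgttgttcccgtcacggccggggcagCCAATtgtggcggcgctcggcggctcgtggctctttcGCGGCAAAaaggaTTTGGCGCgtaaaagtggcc
UHRF1: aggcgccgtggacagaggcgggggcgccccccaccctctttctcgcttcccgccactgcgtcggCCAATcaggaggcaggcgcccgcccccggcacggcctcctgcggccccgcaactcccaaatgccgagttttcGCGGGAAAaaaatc
RFC3: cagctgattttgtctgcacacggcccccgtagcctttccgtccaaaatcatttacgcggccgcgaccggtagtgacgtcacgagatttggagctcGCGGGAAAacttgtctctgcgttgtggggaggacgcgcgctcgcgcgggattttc
CDC45: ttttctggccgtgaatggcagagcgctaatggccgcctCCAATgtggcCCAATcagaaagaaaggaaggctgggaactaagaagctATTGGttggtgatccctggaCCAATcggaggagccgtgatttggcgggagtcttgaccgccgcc
PCNA: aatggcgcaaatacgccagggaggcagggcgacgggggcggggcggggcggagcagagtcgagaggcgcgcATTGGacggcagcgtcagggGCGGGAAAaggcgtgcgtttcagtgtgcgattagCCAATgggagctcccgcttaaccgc

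Over 300 bases (250 before to 50 after the start), an E2F motif was found in 17 of the 32 members with a promoter in the table (53.1%), against 1164 of 35116 promoters in all (3.31%). CCAAT was found in 16 of 32 members (50%), against 34.6% of all promoters. TTTGAA, the core of the CHR element of many G2/M genes, was in 1 of 32 members, against 15.2% of all. Of the members that fell with candidate 240 ASO3 in A549, 7 of 11 with a promoter held an E2F motif, against 10 of the 21 that did not fall. With candidate 42 ASO3 in NCI-H460 it was 3 of 8 that fell, against 14 of 24 that did not, so the order of the shares was the opposite. CCAAT was in 9 of the 11 that fell with candidate 240 ASO3 in A549, against 7 of the 21 that did not. For candidate 42 ASO3 in NCI-H460 it was in 6 of 8, against 10 of 24. These differences in share were not tested. A match is a description of these letters and not evidence of binding.

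In control libraries the most abundant member in A549 was PCNA, the sliding clamp of the polymerases, at 431 ± 47.9 TPM (SD, n = 3), followed by the thymidine kinase gene TK1 at 260 ± 46.2 TPM. In NCI-H460 controls the highest was RRM2, a subunit of ribonucleotide reductase, at 259 ± 3.5 TPM (SD, n = 2), followed by PCNA at 233 ± 8.16 TPM. The lowest in both lines was CCNE2, cyclin E2, at 2.58 ± 0.410 TPM in A549 and 5.04 ± 0.0534 TPM in NCI-H460. POLA1, the catalytic subunit of polymerase alpha, stood near the low end, at 12.4 ± 1.59 TPM in A549 and 16.4 ± 0.804 TPM in NCI-H460.

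**Figure D1:**
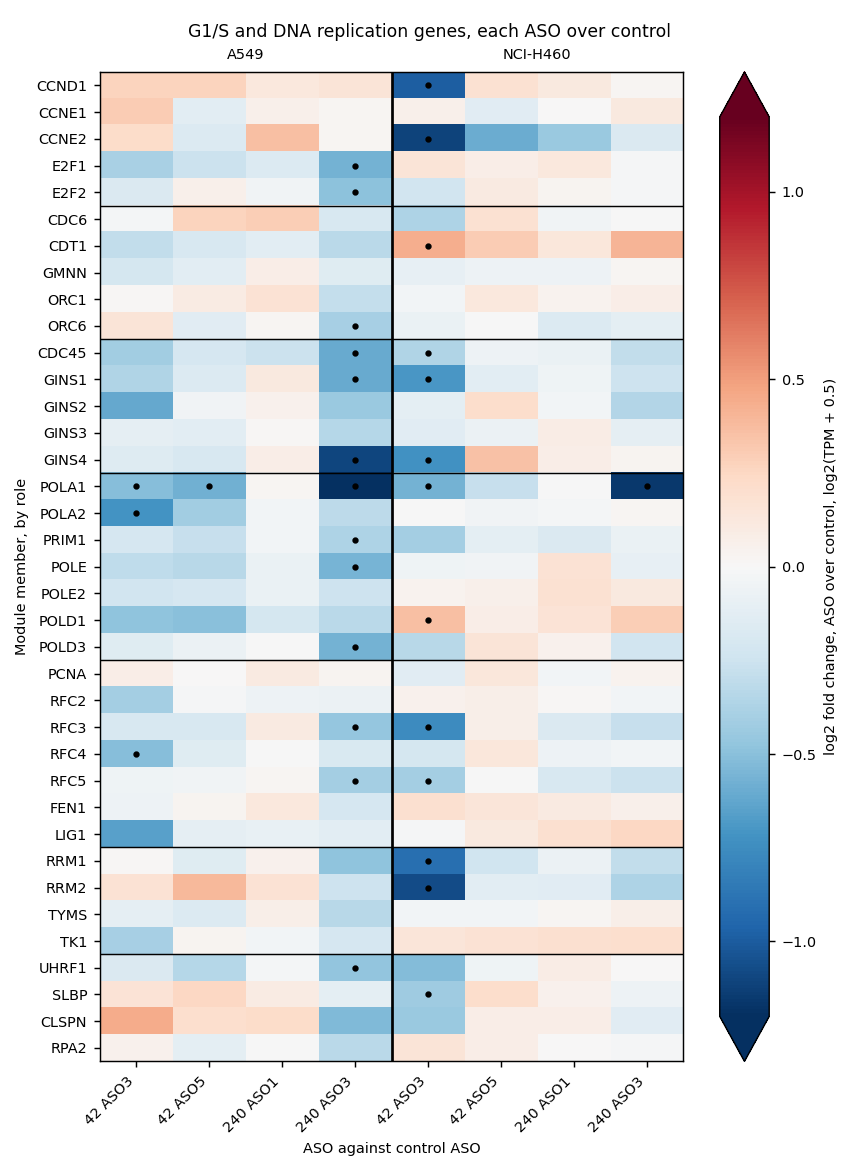
Log2 fold change (ASO over control, TPM + 0.5) of the 37 members, grouped by role, in the 8 comparisons. The A549 candidate 240 ASO3 column is negative for 33 of 37 members, and POLA1 is the member that fell in 5 of the 8 comparisons.

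Candidate 240 ASO3 in A549 lowered 13 of the 37 members (35.1%) and raised none, where 7.82% of the 14740 genes tested fell and 13.8% changed in either direction. The genes that fell were those of the polymerases (POLA1, PRIM1, POLE, POLD3), the helicase activators (GINS4, GINS1, CDC45), the clamp loader (RFC5, RFC3), E2F factors (E2F1, E2F2), licensing (ORC6) and replicated chromatin (UHRF1). The members' median log2 fold change was -0.33, against -0.01 over all genes tested, and 33 of 37 were negative. In 15 members every ASO3 library lay below every control library, which held for 13.2% of all genes. In A549 such separation was also found for 15 members with candidate 42 ASO3 and 10 with candidate 42 ASO5. For those the share over all genes is not given.

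Among the polymerases, POLA1 stood at 2.79, 3.13 and 3.42 TPM in the candidate 240 ASO3 libraries of A549, against 10.7, 13.0 and 13.7 TPM in control libraries. The groups lay far apart, and the ASO3 mean was 25.0% of control (log2 fold change -1.84, SE 0.12, limma adjusted p = 6.65e-07). PRIM1, the catalytic primase subunit, stood at 25.3, 22.0 and 23.0 TPM with ASO3, against 32.1, 27.7 and 31.6 TPM in controls (log2 fold change -0.37, SE 0.10, limma adjusted p = 0.0219). The groups did not overlap. POLE, the catalytic subunit of the leading strand polymerase epsilon, stood at 16.1, 21.6 and 17.8 TPM with ASO3, against 24.7, 31.6 and 26.2 TPM in controls (log2 fold change -0.56, SE 0.15, limma adjusted p = 0.0251). POLD3, an accessory subunit of polymerase delta, stood at 8.62, 10.7 and 11.1 TPM with ASO3, against 12.5, 15.2 and 18.2 TPM in controls (log2 fold change -0.56, SE 0.15, limma adjusted p = 0.0237). Neither overlapped its controls. POLA2, POLE2 and POLD1 had log2 fold changes of -0.31, -0.24 and -0.33 and did not pass the test.

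Of the helicase activators, GINS4 stood at 23.3, 19.3 and 16.6 TPM in candidate 240 ASO3 libraries, against 42.9, 41.2 and 43.5 TPM in control libraries. That is 46.4% of the control mean, with no overlap (log2 fold change -1.10, SE 0.14, limma adjusted p = 0.000111). GINS1, another GINS subunit, stood at 17.5, 18.5 and 20.3 TPM with ASO3, against 30.1, 32.5 and 24.4 TPM in controls (log2 fold change -0.61, SE 0.11, limma adjusted p = 0.00195). CDC45, which binds GINS in the active helicase, stood at 25.2, 16.4 and 18.8 TPM with ASO3, against 37.3, 29.3 and 25.9 TPM in controls (log2 fold change -0.61, SE 0.16, limma adjusted p = 0.0185). In both the groups were separate, though for CDC45 the highest ASO3 library came within 1 TPM of the lowest control. GINS3 (-0.35) and GINS2 (-0.45) were not called.

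UHRF1, which guides maintenance DNA methylation at replicated DNA, stood at 24.4, 30.8 and 29.7 TPM with candidate 240 ASO3, against 38.2, 40.5 and 38.8 TPM in controls (log2 fold change -0.47, SE 0.10, limma adjusted p = 0.00813). RFC5, a clamp loader subunit, stood at 27.5, 27.9 and 26.0 TPM with ASO3, against 34.8, 37.4 and 35.9 TPM in controls (log2 fold change -0.40, SE 0.09, limma adjusted p = 0.00984). E2F2 stood at 3.84, 3.91 and 4.32 TPM with ASO3, against 6.06, 5.81 and 5.67 TPM in controls (log2 fold change -0.49, SE 0.11, limma adjusted p = 0.0106). None of these 3 genes overlapped between groups. The remaining falls were of ORC6 (-0.39), RFC3 (-0.46) and E2F1 (-0.57). PCNA stood at 505, 410 and 413 TPM with ASO3, against 469, 447 and 377 TPM in controls, and the groups overlapped. The G1 cyclins CCND1 (0.16), CCNE1 (0.02) and CCNE2 (0.02) and all 4 nucleotide supply genes (-0.49 to -0.20) did not pass.

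Replicate numbers paired these libraries (correlation of same-numbered deviations 0.28 to 0.56), and with the number as a block 20 members fell. For the block and other alternative fits, here and below, the share called over all genes is not given. Those counts are therefore not set against a background, and nothing about the members is read from them. Left out singly, candidate 240 ASO3 replicate 4 or 5 took the count to 8 or 7. POLA1, GINS4, GINS1, UHRF1, RFC5 and E2F2 passed whichever of the 6 libraries was left out. When only the ASO3 and control libraries were fitted, POLA1 and GINS4 alone passed, the limma adjusted p of the other 4 being 0.0784 for GINS1, 0.113 for UHRF1, 0.115 for RFC5 and 0.162 for E2F2. The call was lost without at least 1 library for CDC45, E2F1 and POLD3 (3 of the 6 libraries each), ORC6, PRIM1 and POLE (4 each) and RFC3 (5). The summed level of 5 epithelial markers was 4892 to 6110 TPM in these ASO3 libraries, against 6684 to 7723 TPM in controls. The markers went both ways, 2 falling and 1 rising (log2 fold changes -0.59 to 0.76). The part of the summed level in the result was not tested. The authors' deposited table has 9 of the 37 members, and 11.6% of all genes listed, at a q-value under 0.05, with POLA1 at a log2 fold change of -1.98.

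**Figure D2:**
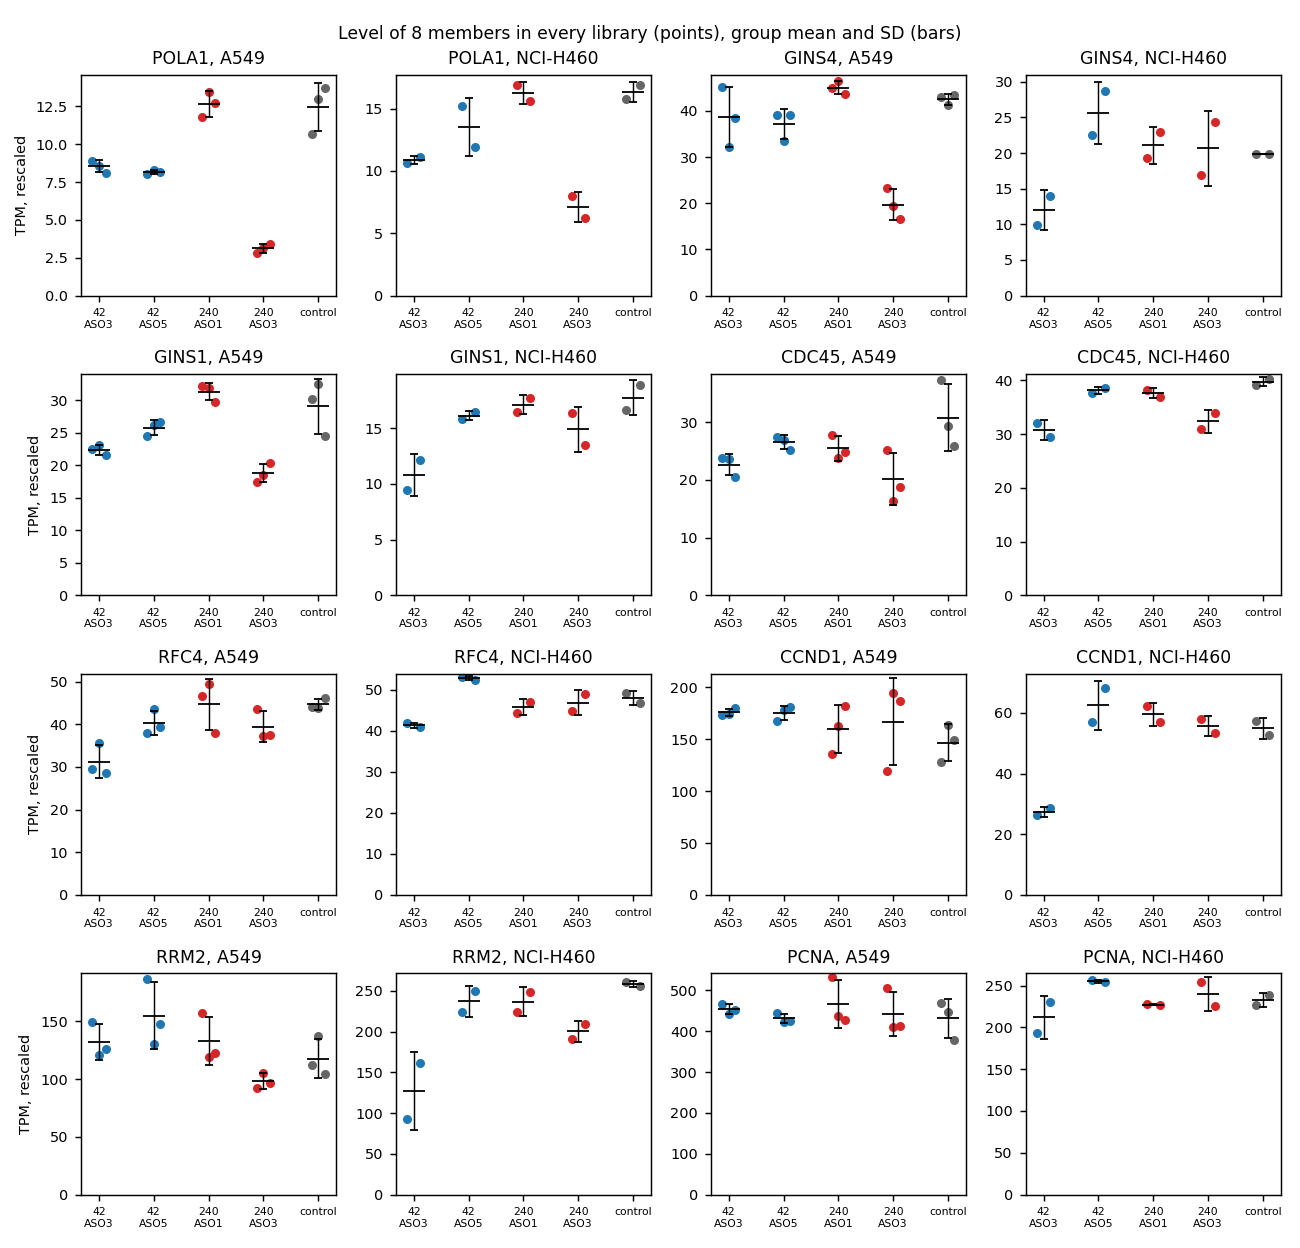
TPM of 8 members in every library (points) with the group mean and SD (bars), by ASO and line, ASO groups left of control. POLA1 in A549 lies between 2.79 and 3.42 TPM with candidate 240 ASO3, and between 10.7 and 13.7 TPM in controls.

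The genes outside the set were read from lists of the same pathways. For candidate 240 ASO3 in A549 the list counts stand beside 7.82% of all genes lower and 13.8% called in either direction. With candidate 240 ASO3 in A549, 3 of 6 MCM genes fell, among them MCM6 (log2 fold change -3.12, 5.00 ± 0.732 against 47.2 ± 5.05 TPM, SD, n = 3 each), MCM3 (-0.53) and MCM2 (-0.45). Of 25 G2/M and mitosis genes 9 fell and none rose, including CENPA (-0.81), AURKA (-0.47), MKI67 (-0.57) and CCNB1 (-0.53), and all 25 were negative. Of 24 further polymerase and fork genes 3 fell, CHTF18 (-1.57), CHAF1A (-0.64) and RNASEH2B (-0.44). Of 26 tested genes of E2F and G1/S control, CDKN1A, the kinase inhibitor p21, rose (0.66) and E2F8 fell (-0.64). MCM10 was the 1 of 13 further licensing and origin firing genes to fall (-0.57). IMPDH2 was the 1 of 16 nucleotide supply genes to rise (0.47).

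**Figure D3:**
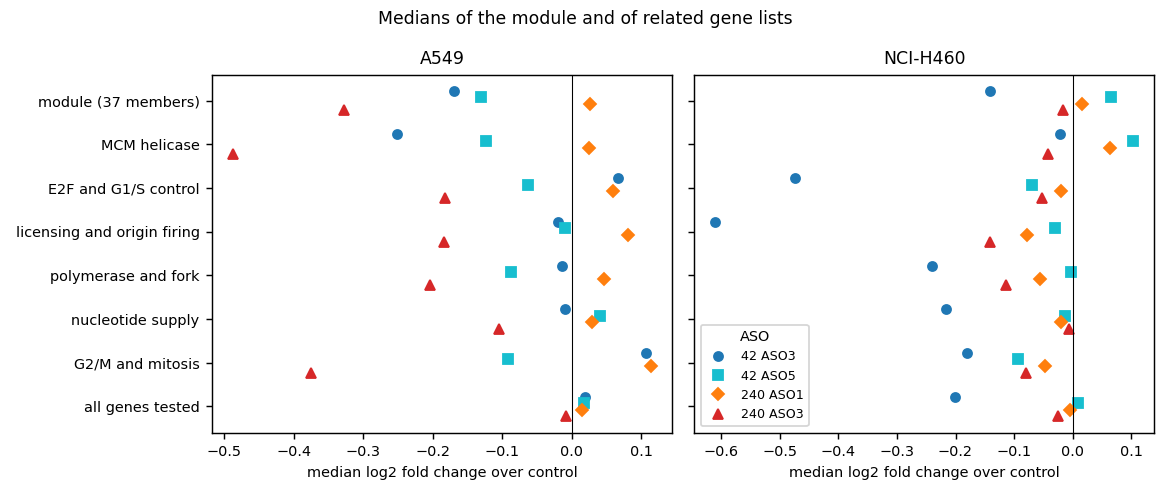
Median log2 fold change of the 37 members, of each pathway list and of all genes tested, by comparison. With candidate 240 ASO3 in A549 the members' median is -0.33 and the G2/M list's -0.38, against -0.01 for all genes.

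With ASO1 against the same candidate no member was called in A549, where limma called 0 of 14740 genes (0%). Before adjustment, p was under 0.05 for 267 genes and 1 member. The authors' deposited table has 0 members (0% of all genes) at a q-value under 0.05. The members' median was 0.03. The largest change was CCNE2 at 0.36 (limma adjusted p = 1). POLA1 stood at 101.6% of control with ASO1, with overlapping groups. Tested directly, ASO3 minus ASO1 was negative in 36 of 37 members and called 14 lower and none higher, against 9.48% of all genes lower and 16.7% called in either direction. These include POLA1 (-1.86), GINS4 (-1.18), GINS1 (-0.72), RFC5 (-0.43), RFC3 (-0.57), UHRF1 (-0.45), CDC6 (-0.49), E2F2 (-0.45), ORC6 (-0.42) and POLD3 (-0.56). With the replicate block 23 were lower. Without ASO1 replicate 3, 4 or 5 the count was 9, 8 or 9, and without ASO3 replicate 5 it was 9.

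Against candidate 42 in A549, ASO3 lowered 3 of 37 members (8.11%), where 10.1% of all genes were called and 6.63% fell. In this fit, without a replicate block, the members' share was near the background. More members were called with the block, as given in the last section, where no share over all genes is given. RFC4, a clamp loader subunit, stood at 29.4, 35.6 and 28.6 TPM with ASO3, against 43.9, 43.8 and 46.2 TPM in controls (log2 fold change -0.52, SE 0.12, limma adjusted p = 0.0139). POLA1 stood at 8.90, 8.59 and 8.11 TPM with ASO3, against 10.7, 13.0 and 13.7 TPM in controls (log2 fold change -0.51, SE 0.12, limma adjusted p = 0.0154). POLA2, the regulatory subunit of polymerase alpha, stood at 17.2, 10.9 and 11.2 TPM with ASO3, against 24.4, 19.7 and 20.3 TPM in controls (log2 fold change -0.72, SE 0.20, limma adjusted p = 0.0375). No group overlapped its controls. The median was -0.17, against 0.02 over all genes, and 26 of 37 were negative. The authors' deposited table has 7 members, and 11.3% of all genes, at a q-value under 0.05. None of the 3 passed without ASO3 replicate 5. POLA1 was also lost without control replicate 4 or 5, and POLA2 without any of 5 of the 6 libraries. POLA2 shares exon bases with another gene on its own strand. The summed epithelial markers were 5446 to 6253 TPM with ASO3, against 6684 to 7723 TPM in controls. Of the 5 markers 1 fell and 1 rose (log2 fold changes -0.55 to 0.62), and their part was not tested. Of the lists, CCND3 (-0.60) and CDKN2C (-0.66) were the 2 of 26 E2F and G1/S control genes to fall, CHAF1B fell (-0.44) and TOP1 rose (0.42) among 24 polymerase and fork genes, CTPS1 fell (-0.57) among 16 nucleotide supply genes and KIF20A rose (0.45) among 25 G2/M genes. No MCM gene and no further licensing or origin firing gene was called.

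ASO5 against candidate 42 lowered POLA1 and no other member in A549, where 2.4% of all genes fell and 3.82% were called. POLA1 stood at 8.01, 8.31 and 8.15 TPM with ASO5, against 10.7, 13.0 and 13.7 TPM in controls (log2 fold change -0.57, SE 0.12, limma adjusted p = 0.0193). The groups did not overlap, but the call was lost when any of 5 of the 6 libraries was left out, all but control replicate 3. The members' median was -0.13, against 0.02 over all genes. UHRF1 had a log2 fold change of -0.34 and did not pass in this test, while the authors' deposited table has it at a q-value of 0.0347, as 1 of 2 members (5.56% of all genes) under 0.05. Of 26 E2F and G1/S control genes, CDKN1A rose (0.65, 225 ± 10.01 against 144 ± 17.5 TPM, SD, n = 3 each) and CDKN2C, another kinase inhibitor gene, fell (-0.59). Of 16 nucleotide supply genes, SAMHD1 (-0.68) and TK2 (-1.02) fell, and no gene of the other 4 lists was called. ASO5 minus ASO3 called 0 members with limma, against 10.7% of all genes. 8 of 37 members had an unadjusted p under 0.05, against 3564 of all 14740 genes. With the replicate block, which the correlations (0.13 to 0.41) pair, 5 members were higher and 2 lower.

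**Figure D4:**
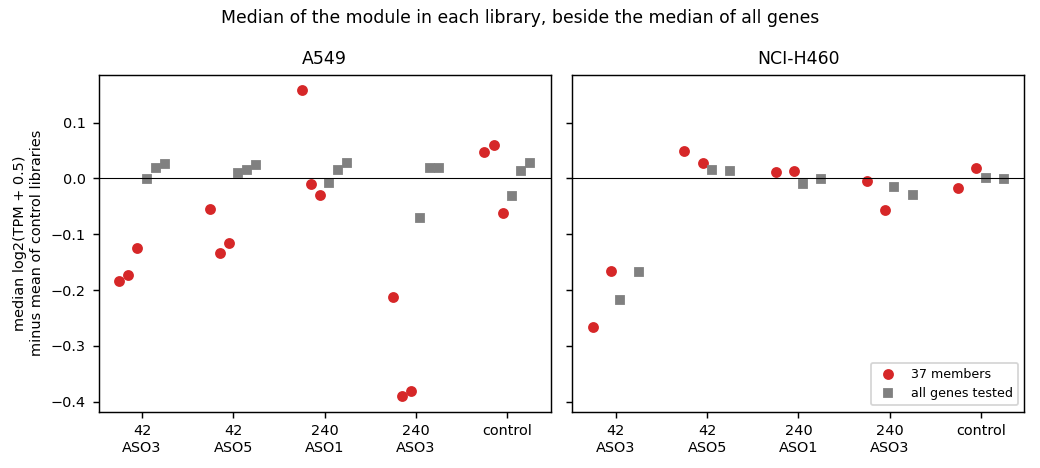
Median over the 37 members of the log2 difference from the line's control mean, for each library (red), beside that of all genes tested (grey), by group. The candidate 240 ASO3 libraries of A549 lie at -0.21, -0.39 and -0.38, and the A549 control libraries between -0.06 and 0.06.

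In NCI-H460 candidate 42 ASO3 lowered 11 members and raised 2, 35.1% of the set, where 46% of the 13774 genes tested were called, 32.8% lower and 13.2% higher. The members' share was below that of the whole table. The members' median was -0.14, against -0.20 over all genes. With median-of-ratios scaling, which moves the median of all genes to 0.01, the members' median was 0.08, and 6 members were lower and 5 higher. The authors' deposited table has 27 of 37 members, and 49.3% of all genes, at a q-value under 0.05. With 2 libraries a group, groups can separate readily without an effect, so separation in NCI-H460 is a description only. Its share over all genes is not given.

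CCND1, the G1 cyclin D1, stood at 26.2 and 28.6 TPM with candidate 42 ASO3 in NCI-H460, against 57.4 and 52.6 TPM in controls (log2 fold change -0.99, SE 0.11, limma adjusted p = 0.000403). CCNE2 stood at 1.90 and 2.26 TPM with ASO3, against 5.08 and 5.01 TPM in controls (log2 fold change -1.11, SE 0.15, limma adjusted p = 0.000879). Both cyclins lay well below their controls, with separate groups. RRM1, the large subunit of ribonucleotide reductase, stood at 42.8 and 45.8 TPM with ASO3, against 82.0 and 84.1 TPM in controls (log2 fold change -0.90, SE 0.16, limma adjusted p = 0.00238). RRM2, its small subunit, stood at 93.0 and 161 TPM with ASO3, against 261 and 256 TPM in controls (log2 fold change -1.08, SE 0.21, limma adjusted p = 0.00376). The ASO3 libraries of RRM2 differed widely from each other, and both lay below the controls.

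RFC3 stood at 16.7 and 19.0 TPM with candidate 42 ASO3, against 29.8 and 31.0 TPM in controls (log2 fold change -0.75, SE 0.12, limma adjusted p = 0.00159). RFC5 stood at 24.2 and 29.3 TPM with ASO3, against 34.3 and 36.9 TPM in controls (log2 fold change -0.41, SE 0.11, limma adjusted p = 0.014). Neither clamp loader subunit overlapped. GINS1 stood at 9.45 and 12.2 TPM with ASO3, against 16.6 and 18.9 TPM in controls (log2 fold change -0.70, SE 0.15, limma adjusted p = 0.00526). CDC45 stood at 32.1 and 29.4 TPM with ASO3, against 39.2 and 40.3 TPM in controls (log2 fold change -0.36, SE 0.09, limma adjusted p = 0.0118). GINS4 stood at 9.96 and 13.9 TPM with ASO3, against 19.9 and 19.9 TPM in controls (log2 fold change -0.73, SE 0.21, limma adjusted p = 0.0204). These 3 of the 5 helicase activators were thus lower in both ASO3 libraries. GINS2 and GINS3, at 91.5% and 90.5% of control, were not called. POLA1 stood at 10.7 and 11.1 TPM with ASO3, against 15.8 and 16.9 TPM in controls, again without overlap (log2 fold change -0.57, SE 0.15, limma adjusted p = 0.0153). SLBP, which binds histone mRNA stem-loops, fell (-0.43), while the licensing factor CDT1 (0.43) and the polymerase delta subunit POLD1 (0.36) rose.

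CCND1, CCNE2, RFC3, RRM1, RRM2 and GINS1 passed with any 1 of the 4 libraries left out and with median-of-ratios scaling. The call was lost without control replicate 2 for the other 7 members, also without ASO3 replicate 1 for each of these except CDC45, and also without control replicate 1 for each except CDT1 and RFC5. Without control replicate 2 the count was 6, without ASO3 replicate 1 it was 7 and without control replicate 1 it was 8. With median-of-ratios scaling CDC45, GINS4, POLA1, RFC5 and SLBP did not pass.

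Of the genes outside the set, the list counts stand beside 32.8% of all genes lower and 13.2% higher, and they were not recomputed with median-of-ratios scaling. Of 25 tested genes of E2F and G1/S control 15 fell and 1 rose, led by RBL2 (-1.44), RBL1 (-1.16), RB1 (-1.15) and E2F7 (-1.2). Of 13 licensing and origin firing genes 9 fell and 1 rose, led by DBF4 (-0.98) and WDHD1 (-0.92). Of 24 polymerase and fork genes 11 fell and 2 rose, of 16 nucleotide supply genes 7 fell and 1 rose, with CTPS1 (-0.81) and GART (-0.67) among those that fell. Of 6 MCM genes 1 fell, and of 25 G2/M genes 10 fell and 4 rose.

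ASO5 against candidate 42 called 0 members in NCI-H460 with limma, where 0.508% of all genes were called. 2 of 37 members had an unadjusted p under 0.05, against 2093 of all 13774 genes, and the members' median was 0.07. CCNE2 stood at 3.26 and 3.08 TPM with ASO5, against 5.08 and 5.01 TPM in controls, and did not pass (limma adjusted p = 0.136). Of the lists CDKN1A alone was called, and it rose (0.62, 102 ± 1.52 against 66.6 ± 1.59 TPM, SD, n = 2 each). ASO5 minus ASO3 called 13 members higher, against 27.7% of all genes higher and 33.3% called in either direction. These include CCND1 (1.17), RFC3 (0.82), GINS4 (1.08), SLBP (0.64), RRM2 (0.95), RRM1 (0.66), RFC4 (0.35), POLD3 (0.49), CDC6 (0.56) and GINS1 (0.57). With median-of-ratios scaling 5 were higher and 4 lower. Without ASO5 replicate 1 or 2 the count was 7 or 3, and without ASO3 replicate 1 it was 8.

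Against candidate 240 in NCI-H460, ASO3 lowered POLA1 and no other member, where 3.01% of all genes fell and 5.66% were called. POLA1 stood at 7.97 and 6.22 TPM with ASO3, against 15.8 and 16.9 TPM in controls. That is 43.4% of control, with separate groups (log2 fold change -1.16, SE 0.15, limma adjusted p = 0.00547), and it did not pass without control replicate 2 (adjusted p = 0.062). The authors' deposited table has 2 members, POLA1 and RRM2, and 6.91% of all genes, at a q-value under 0.05. GINS4 stood at 17.0 and 24.4 TPM with ASO3, on either side of the controls at 19.9 and 19.9 TPM. Of the lists, MCM6 (-2.19) was the 1 MCM gene and CHTF18 (-1.23) the 1 polymerase and fork gene to fall. Of 25 tested E2F and G1/S control genes CDKN1A rose (0.96), while CDK6 (-0.70), RBL2 (-0.77) and RBL1 (-0.67) fell, and none of 25 G2/M genes was called. ASO1 called 0 of 13774 genes (0%) with limma, 493 genes and 1 member having an unadjusted p under 0.05. Its largest member change was CCNE2 (-0.45, limma adjusted p = 0.927). ASO3 minus ASO1 called POLA1 lower (-1.15), against 1.88% of all genes lower and 2.92% called. That call was lost without either ASO1 library or ASO3 replicate 2.

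Whether a response differed between the lines was tested as A549 minus NCI-H460 in one fit. For candidate 42 ASO3 it was higher in A549 for CCND1 (1.26, SE 0.23), RRM2 (1.25, SE 0.27), CCNE2 (1.33, SE 0.31), SLBP (0.59, SE 0.18) and RFC3 (0.56, SE 0.19), 5 of 37, where 15.5% of all genes were higher and 19.7% were called. The CCND1 difference passed with any library left out, those of RRM2 and CCNE2 did not without NCI-H460 ASO3 replicate 1, and with median-of-ratios scaling 3 members were higher and 4 lower. Those of SLBP and RFC3 were lost without that library or either NCI-H460 control library, and that of RFC3 also without 4 of the A549 libraries. The count was 1 without NCI-H460 ASO3 replicate 1 and 3 without either NCI-H460 control library, against 9 without NCI-H460 ASO3 replicate 2 or A549 control replicate 4 and 10 without A549 ASO3 replicate 3. For candidate 240 ASO3 GINS4 was lower in A549 (-1.14, SE 0.25, limma adjusted p = 0.029), where 0.819% of all genes were lower and 1.21% were called. Leaving out any 1 library took the call away, except for A549 ASO3 replicate 3 and NCI-H460 ASO3 replicate 1. With the replicate number as a block, which paired the A549 libraries of candidate 240 ASO3, 5 members were lower in A549 for candidate 240 ASO3, and 9 were higher and 7 lower for candidate 42 ASO3. The difference for POLA1 (-0.68) did not pass (limma adjusted p = 0.0968). For candidate 42 ASO5 and candidate 240 ASO1 0 members were called, against 0.0339% and 0% of all genes called. Before adjustment, p was under 0.05 for 1 member each, against 968 and 410 of the 14769 genes tested.

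**Figure D5:**
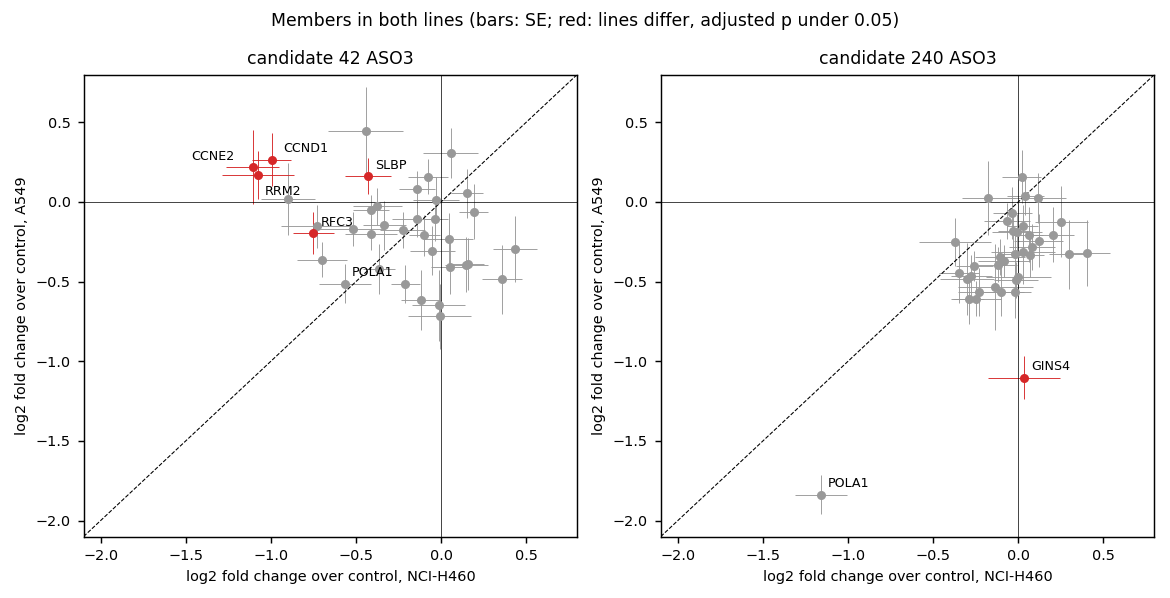
Log2 fold change (ASO over control) of each member in A549 (vertical axis) against NCI-H460 (horizontal axis), for candidate 42 ASO3 and candidate 240 ASO3. Bars are SE, and red points are members whose response differed between lines. With candidate 42 ASO3, CCND1, RRM2 and CCNE2 lie above 0 in A549 and at -1.11 to -0.99 in NCI-H460.

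Across the 8 comparisons with control, 22 members were called in at least 1 and 15 in none. POLA1 fell in 5, 3 in A549 and 2 in NCI-H460, and stood at 82.7% of control with candidate 42 ASO5 in NCI-H460, where it did not pass. Of these falls, only that with candidate 240 ASO3 in A549 passed whichever library was left out. Falls within a line share its control libraries. CDC45, GINS1, GINS4, POLA1, RFC3 and RFC5 fell both with candidate 240 ASO3 in A549 and with candidate 42 ASO3 in NCI-H460, 46.2% of the members that fell in the one and 54.5% of those that fell in the other. Over all genes 7.82% fell in the one and 32.8% in the other, and the overlap was not tested. With median-of-ratios scaling CDC45, GINS4, POLA1 and RFC5 did not pass in NCI-H460. POLA1 spans 303114 bases on chromosome X (hg38, 24693873 to 24996986, plus strand) and shares no exon bases with another gene. Of the members, 13 share exon bases with a gene on the opposite strand, GINS4, CCND1, RRM1 and CCNE2 among them, and no source used here gives the handling of strand, so reads of such pairs cannot be told apart. POLA2, PRIM1, POLD1, POLD3, FEN1 and RRM2 share exon bases with a gene on the same strand, so their reads may be split between genes.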

How the data were processed

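The deposited expression table holds TPM-like signal values per gene name for 25 libraries, made by the authors with kallisto and sleuth (sleuth 0.30, hg38) per the submitters' processing notes. Column sums differ between libraries, and how they were rescaled is not stated in the sources used here. Read depth is unknown, so no counting interval is given. The authors also deposited 8 tables of log2 fold changes with p-values and q-values. Here, log2(TPM + 0.5) was fitted with limma 3.58.1 in R 4.3.3 (empirical Bayes, Benjamini-Hochberg over all genes), in each line over its 5 groups, without a block, after leaving out genes averaging under 1 TPM, with differences between lines fitted over all 25 libraries. The procedure was run on simulated libraries drawn independently, without replicate pairing or a shift of all genes. Its behaviour under pairing or such a shift was not tested. Replicate numbers were taken as pairing libraries where all 3 correlations of same-numbered deviations were over 0.1. The labels give replicate numbers only. The members and lists were chosen with earlier results of these data known. Library values are given for up to 10 called members a comparison by smallest adjusted p, and at most 4 called genes are named per list. PCNA, and other members given with library values without a call, were chosen after their values were seen.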

Additional observations from a re-analysis of the deposited data

Results flagged for a closer look

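A response that differed between the lines, by the interaction test in limma, was found for 6 members. With candidate 42 ASO3 the log2 fold change in A549 minus that in NCI-H460 was 1.26 for CCND1 (adjusted p = 0.00317), 1.33 for CCNE2 (0.0102), 1.25 for RRM2 (0.00704), 0.589 for SLBP (0.0293) and 0.555 for RFC3 (0.0486). With candidate 240 ASO3 it was -1.14 for GINS4 (adjusted p = 0.029). For candidate 42 ASO3 these are 5 of 37 members (13.5%), below the 19.7% called over all genes. The difference for CCND1 passed with any 1 library left out, and those of the other 5 did not. The lines also differ in their number of libraries, 3 and 2 a group.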

How the results depend on the processing

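No called member changed sign, and a pseudocount of 1 and median-of-ratios scaling left the 16 totals of called members within 1.5 times. Median-of-ratios scaling did change the split: for NCI-H460 candidate 42 ASO3 to 6 lower and 5 higher, against 11 lower and 2 higher, and for candidate 42 ASO5 minus ASO3 to 5 higher and 4 lower, against 13 higher. It turned the members' median for NCI-H460 candidate 42 ASO3 to 0.08, against -0.14. The medians for candidate 240 ASO1, near 0 in both lines (0.03 and 0.02), also changed sign with 1 library left out, at lowest to -0.02 in each. Fitted on the compared groups only, the counts were 1 (candidate 42 ASO3), 0 (candidate 42 ASO5), 2 (candidate 240 ASO3), 2 (candidate 42 ASO5 minus ASO3) and 5 (candidate 240 ASO3 minus ASO1) in A549, 8 (candidate 42 ASO3) and 4 (candidate 42 ASO5 minus ASO3) in NCI-H460, and 3 (candidate 42 ASO3) and 0 (candidate 240 ASO3) between lines. With the replicate number as a block they were 12, 4, 20, 7 and 23 for the same 5 A549 comparisons, and 16 and 5 between lines. Same-numbered libraries did not all correlate over 0.1 for candidate 42 ASO3 (0.09 to 0.39) or ASO5 (0.02 to 0.32) against control in A549, and NCI-H460 has 2 replicates, so there the block is only this alternative. It moved no other count by over 1.5 times. Without the filter on low values NCI-H460 candidate 42 ASO5 minus ASO3 gave 8, and the candidate 42 ASO3 difference between lines 3. With each library left out in turn, the counts in A549 were 0 to 3 (candidate 42 ASO3), 0 to 1 (candidate 42 ASO5), 0 to 0 (candidate 240 ASO1), 7 to 14 (candidate 240 ASO3), 0 to 1 (candidate 42 ASO5 minus ASO3) and 8 to 16 (candidate 240 ASO3 minus ASO1). In NCI-H460 they were 6 to 17, 0 to 0, 0 to 0, 0 to 1, 3 to 15 and 0 to 1 in the same order, and between lines 1 to 10, 0 to 0, 0 to 0 and 0 to 1. Where 1 library of a group was left it was assumed to vary like the other groups. The shares called over all genes under these settings are not given, and the cause of these shifts was not tested.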
